A study of Homo sapiens with 6 samples.

Results

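The PGC-1 coactivators and the nuclear genes around them that set the amount and activity of mitochondrial DNA transcription were followed in PRMT1-depleted myeloma cells. They are 10 of the 58735 genes listed with an expression value, chosen by name: the coactivators PPARGC1A, PPARGC1B and PPRC1, the transcription factors NRF1, GABPA and ESRRA, and the mitochondrial transcription genes TFAM, TFB1M, TFB2M and POLRMT. All 10 were found, and all 10 were among the 13585 genes with a mean of at least 1 FPKM, the level needed to enter the test. FPKM are fragments per gene, here scaled by gene length and by a size factor for each library. None of the 10 passed the test between the groups, and for each of them the libraries of the 2 groups overlapped.

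The libraries came from MM.1S, an established human multiple myeloma cell line, transfected with siRNA at 100 nM and collected after 72 h. The control group (3 libraries) carried the negative control siRNA si-NC, and the PRMT1 KD group (3 libraries) carried siRNA against PRMT1, the main asymmetric arginine methyltransferase of human cells. Both groups share the transfection, and no untransfected cells were analysed here. Which of the study's PRMT1 siRNAs was used for sequencing is not named in the sources used here, so the knockdown stands as a single line under a single treatment. The study's methods call its replicates biological but dependent, and the labels name no separate cultures, so p-values measure only the spread between these libraries, which may be technical.

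PGC-1 coactivators do not bind DNA themselves. They are carried to genes by partners such as the nuclear respiratory factors NRF1 and GABP and by the oestrogen-related receptors, and through these they raise nuclear genes for the respiratory chain and for the proteins that copy and read mitochondrial DNA. PGC-1 alpha, the protein of PPARGC1A, is known as a substrate of PRMT1, and a methylation of the protein is not measured by RNA levels. NRF1 here is nuclear respiratory factor 1 and not NFE2L1, which has also been called NRF1. Inside the mitochondrion, the polymerase POLRMT starts transcription together with the DNA-packaging factor TFAM and the initiation factor TFB2M, while TFB1M methylates ribosomal RNA of the small mitochondrial subunit.

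The members' promoters were searched for the letters that members of the same set recognise. RefSeq promoters (GRCh38.p14, 250 bases before to 50 bases after the start) were matched for 9 of the 10 genes, in 10 promoter entries, and NRF1 was not matched. The letters GCGCANGCG, the core of the palindromic NRF1 site, were searched on both strands. They were present in the promoters of 5 members, ESRRA, TFAM, TFB1M, TFB2M and POLRMT, against 7.52% of all 35116 promoters and 14.1% of the 12133 promoters of genes tested here. The matches of the 4 mitochondrial transcription genes are shown with that of ESRRA, because they carry the letters that NRF1, itself a member, recognises. Each line is a 30-base stretch on the strand of the gene, 5′ to 3′, with the bases that match on either strand in capitals.

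TFAM: acgctctcccgCGCCTGCGCcaattccgcc
TFB1M: gcaggacttaGCGCATGCGCtctcagcacg
TFB2M: aaggctccgctgttCGCATGCGCaggctct
POLRMT: cggcgcggGCGCATGCGCAGGCGcgggccg
ESRRA: ctcgtccgggcGCGCAGGCGccgcccgccc

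The TFAM stretch lies at chr10:58385337-58385366 on the plus strand, and its match ends 54 bases before the start. The TFB1M stretch, at chr6:155314597-155314626 on the minus strand, holds 2 overlapping matches, 1 on each strand, in a perfect palindrome that ends 123 bases before the start. The TFB2M stretch, at chr1:246566262-246566291 on the minus strand, ends its match 8 bases before the start. In POLRMT, at chr19:633540-633569 on the minus strand, 3 overlapping matches end 10 bases before the start. The ESRRA match, at chr11:64305420-64305449 on the plus strand, ends 85 bases before the start. The matches of TFAM, TFB2M and POLRMT overlap a GENCODE 29 exon of the same gene, and those of TFB1M and ESRRA fall in no annotated exon of these genes. Distances are from the RefSeq start. TFB2M has 1 transcript in GENCODE 29, and the gene reaches chr1:246566324, so there the match lies inside the transcript.

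The letters CCGGAAG, the core bound by the ETS domain of GABPA, were present in 3 members against 10.3% of all promoters and 18.7% of those of genes tested. They are shown because GABPA itself is among the 3. TFB1M and POLRMT hold both kinds of letters.

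GABPA: acctccgctctaCTTCCGGccctggctccg
TFB1M: ccgcggtcatcgCTTCCGGtgggataggtc
POLRMT: cctgggagtctaCTTCCGGctggggtttcc

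In these 3 stretches the match, in capitals, was on the strand opposite to the gene. The GABPA stretch (chr21:25734894-25734923, plus strand) ends its match 60 bases before the start, the TFB1M stretch (chr6:155314552-155314581, minus strand) 79 bases before it, and the POLRMT stretch (chr19:633613-633642, minus strand) 87 bases before it. The GABPA match lies in an annotated exon of that gene, and the other two lie in none. The letters TCAAGGTCA, the extended site of the oestrogen-related receptors, were in none of the 10 promoter entries and in 0.353% of all promoters. The promoter entries of PPARGC1A, PPARGC1B and PPRC1 held none of the 3 sets of letters. A match describes letters in a window and not a bound factor, and no binding was measured here.

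The depth was 16064769 to 16465026 reads on genes per library in control and 14439217 to 16313196 in PRMT1 KD, as computed from FPKM and gene length. PRMT1 stood at 61.1 ± 1.97 FPKM in control and 13.3 ± 0.775 FPKM in PRMT1 KD (SD, n = 3), which is 21.7% of control (log2 fold change -2.13, adjusted p = 2.77e-05, limma with Benjamini-Hochberg adjustment). All 9 plasma cell markers, SDC1 and IRF4 among them, had a mean of at least 1 FPKM, with sums of 936 to 959 FPKM in control and 912 to 951 FPKM in PRMT1 KD. The 4 myeloid and the 4 erythroid markers summed to at most 0.218 FPKM in any library. Of 4 T and NK cell markers, CD3E and NKG7 were above 1 FPKM, with sums of 34.2 to 37.8 FPKM in control and 37.6 to 39.9 FPKM in PRMT1 KD. Of 4 stromal and epithelial markers, KRT8 was, with sums of 20.8 to 23.5 and 19.9 to 20.6 FPKM. The part of these genes in the results was not tested. Replicate 3 of each group differed from the other libraries of its group in how levels varied with GC content. The deviation of a gene from its group mean correlated with the GC content of its transcripts by -0.271 in control 3 and -0.345 in PRMT1 KD 3, and by 0.114 to 0.257 in the other 4 libraries, highest in PRMT1 KD 1 (Pearson's r across 13574 genes of one library each, as a description). Deviations within a group cancel for each gene, so the opposite signs are not independent.

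Among the 10 members, 0 had an adjusted p under 0.05 in limma, against 2.05% of all genes tested (145 higher and 134 lower in PRMT1 KD). An unadjusted p under 0.05 was reached by 0 members, against 19.5% of all genes. In limma's voom on the reads, 0 members had an adjusted p under 0.05, against 6.82% of all genes, and 2 (PPARGC1A and GABPA) had an unadjusted p under 0.05, against 22.3%. Groups that did not overlap were found in 0 members, against 25.9% of all genes. The log2 fold change was above 0 in 6 members and below 0 in 4, with a median of 0.03 beside 0.01 over all genes tested. Every 95% interval held 0 and lay within 0.58 of it on the log2(FPKM + 1) scale. That is the size of a 1.5-fold change of FPKM + 1, and a larger change of FPKM for low genes. With 3 libraries a group, these intervals, each for 1 gene, leave out a change of that size only against the spread of these libraries. That spread may be technical, so they do not exclude such a change between separate cultures. The smaller differences given for each gene lie within them. These values being from bulk RNA, fewer cells with a transcript and less of it per cell cannot be told apart.

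**Figure D1:**
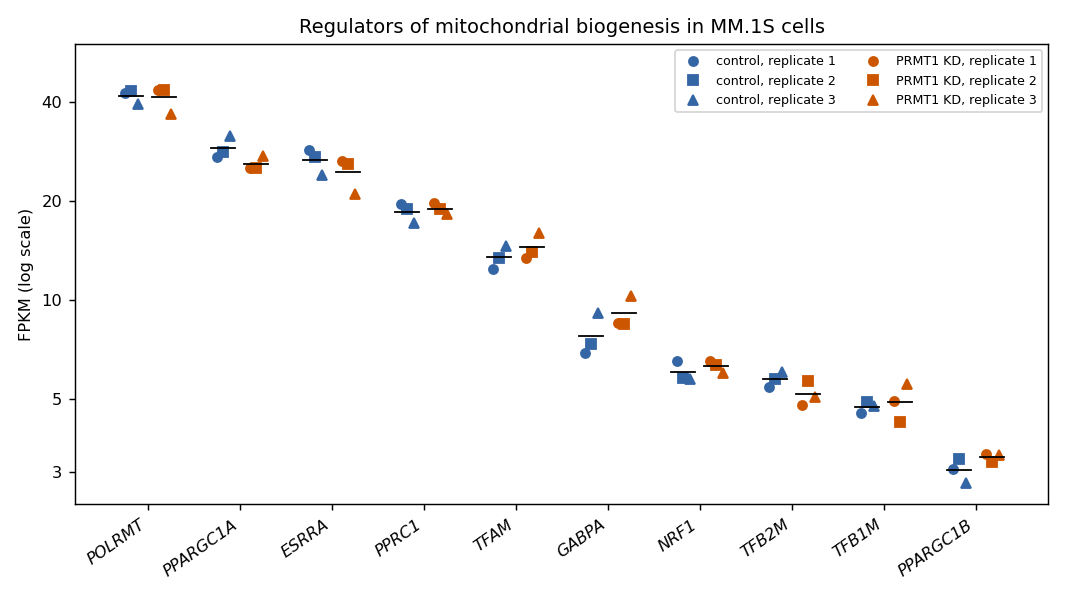
FPKM of the 10 genes in each of the 6 libraries, on a log axis, ordered by the control mean; points are libraries, with the shape giving the replicate number, and the black bar is the mean of a group. The groups overlap for every gene, from POLRMT at 36.8 to 43.6 FPKM down to PPARGC1B at 2.79 to 3.41 FPKM, and the order of the genes is the same in both groups.

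Levels per length ran in the same order in both groups. In control, POLRMT was highest at 41.7 ± 2.07 FPKM, above PPARGC1A at 28.97 ± 2.32 and ESRRA at 26.6 ± 2.38, which overlapped each other in both groups. PPRC1, TFAM and GABPA followed at 18.6 ± 1.29, 13.5 ± 1.07 and 7.80 ± 1.17 FPKM, each without overlap with its neighbours. NRF1 at 6.04 ± 0.448 and TFB2M at 5.76 ± 0.301 FPKM overlapped in control only, TFB2M and TFB1M (4.75 ± 0.188 FPKM) in PRMT1 KD only, and PPARGC1B was lowest at 3.05 ± 0.254 FPKM (SD, n = 3 throughout). POLRMT was higher than 92.8% of the genes tested, and PPARGC1A was higher than 88.0%. PPARGC1B was higher than 30.6%. The lengths used are of all annotated exons together, up to 12889 bases for PPARGC1B and 10870 for PPARGC1A, so a gene read from a short isoform is set too low.

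PPARGC1A (chr4:23755041-23904089, minus strand, hg38) encodes PGC-1 alpha, the inducible coactivator best known from muscle, liver and brown fat. It read 27.2, 28.2 and 31.6 FPKM in control 1 to 3 and 25.3, 25.2 and 27.4 FPKM in PRMT1 KD 1 to 3. PRMT1 KD 1 and 2 lay below every control library, and PRMT1 KD 3 lay just above control 1, so the groups overlapped by that pair alone. The level was 89.7% of control, with a log2 fold change of -0.15 (95% interval -0.31 to 0.01, adjusted p = 0.283 in limma; p = 0.2 in an exact two-sided permutation test, in which 0.1 is the smallest value 3 against 3 can give). It rests on 3947 to 5674 reads a library, the most of the 10. Antisense genes AC093607.1 and AC092834.1 overlap it with 10 to 39 reads a library. The strand setting of the counting is not stated, so reads of a gene and its antisense partner cannot be told apart.

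PPARGC1B (chr5:149730298-149855022, plus strand) encodes PGC-1 beta, the related coactivator that also hosts the microRNA gene MIR378A. Its values were 3.08, 3.30 and 2.79 FPKM in control and 3.41, 3.22 and 3.39 FPKM in PRMT1 KD. Only PRMT1 KD 2 fell inside the control range, below control 2. This gave a log2 fold change of 0.10 (95% interval -0.08 to 0.28, adjusted p = 0.514). PPRC1 (chr10:102132994-102150331, plus strand) encodes PRC, a coactivator known as an early response gene of growth. Its values were 19.7, 18.9 and 17.1 FPKM in control and 19.7, 18.9 and 18.3 FPKM in PRMT1 KD, with only control 3 standing lower. Its log2 fold change was 0.03 (95% interval -0.12 to 0.18, adjusted p = 0.830).

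Within the family, PPARGC1A made up 57.2% ± 3.62 of the summed FPKM in control and 53.8% ± 1.90 in PRMT1 KD, PPRC1 36.7% ± 3.13 and 39.3% ± 1.86, and PPARGC1B 6.04% ± 0.575 and 6.92% ± 0.120 (SD, n = 3). The ratio of PPARGC1A to PPARGC1B was 8.83, 8.55 and 11.3 in control and 7.41, 7.83 and 8.10 in PRMT1 KD. The ranges of this ratio did not overlap. The ratio was formed after the members' values had been seen, and it was not tested.

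NRF1 (chr7:129611714-129757082, plus strand), the activator of cytochrome c and many respiratory chain genes, read 6.56, 5.82 and 5.75 FPKM in control and 6.56, 6.35 and 6.03 FPKM in PRMT1 KD. Control 1 reached the top of the PRMT1 KD range and the other two controls lay below it. Its log2 fold change was 0.06 (95% interval -0.10 to 0.22, adjusted p = 0.696).

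GABPA (chr21:25734570-25772460, plus strand) encodes the DNA-binding alpha subunit of GABP, also called NRF-2, which activates cytochrome oxidase genes. Its values were 6.92, 7.34 and 9.13 FPKM in control and 8.56, 8.495 and 10.3 FPKM in PRMT1 KD. This was the largest rise in mean among the 10, to 117% of control, but control 3 exceeded PRMT1 KD 1 and 2. The log2 fold change was 0.21 (95% interval -0.06 to 0.47), the adjusted p was 0.369 in limma, and an exact permutation test gave p = 0.3. Replicate 3 was the highest of each group, and at 36.5% GC this gene lies at the 2.39th percentile of the genes tested in GC content. A correction for GC content, chosen after the data were seen, brought the log2 fold change to 0.11. The partner subunits did not pass the test either, GABPB1 with 8.03 and 8.64 FPKM and GABPB2 with 8.94 and 10.2 FPKM in control and PRMT1 KD (log2 fold changes 0.09 and 0.17, adjusted p = 0.492 and 0.142). GABPA overlaps ATP5PF, an ATP synthase gene on the opposite strand with 1369 to 1772 reads a library against 622 to 854 for GABPA, and the pseudogene GABPAP holds 27 to 48 reads.

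ESRRA (chr11:64305572-64316743, plus strand) encodes ERR alpha, an orphan receptor that works with PGC-1 alpha at genes of the citric acid cycle and fatty acid oxidation. Its values were 28.6, 27.3 and 24.0 FPKM in control and 26.5, 25.9 and 21.0 FPKM in PRMT1 KD. Replicate 3 was the lowest of each group, and the groups overlapped, with a log2 fold change of -0.12 (95% interval -0.36 to 0.12, adjusted p = 0.562). It was -0.02 without PRMT1 KD 3, -0.19 without control 3 and -0.07 after the GC correction. ESRRA made up 97.8% ± 0.677 of the summed FPKM of ESRRA, ESRRB and ESRRG in control and 97.6% ± 0.549 in PRMT1 KD (SD, n = 3). TRMT112, a methyltransferase cofactor gene, overlaps ESRRA on the opposite strand with 1567 to 2093 reads a library against 969 to 1435 for ESRRA.

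**Figure D2:**
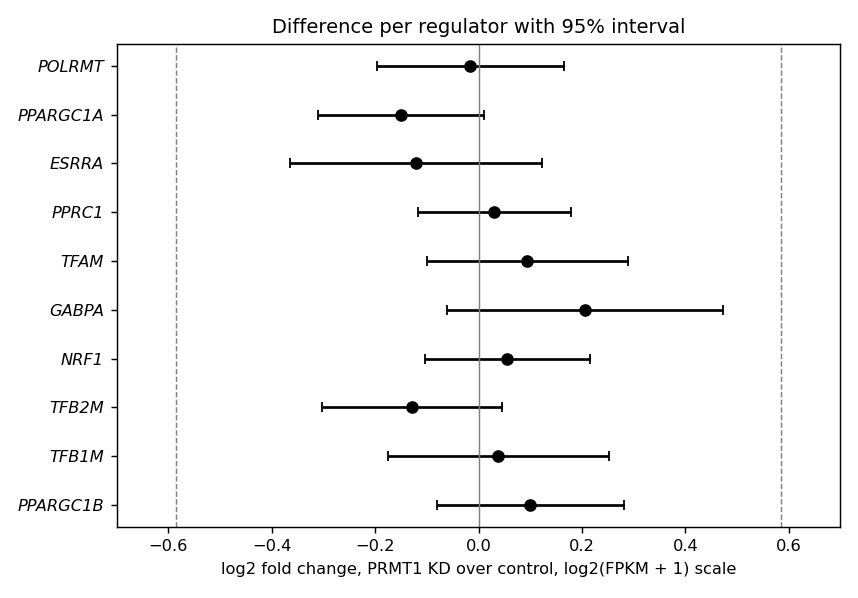
Log2 fold change of each gene (PRMT1 KD over control, log2(FPKM + 1) scale, x axis) with its 95% interval from limma, in the order of the control levels. The dashed lines at 0.58 either side of 0 mark a 1.5-fold change of FPKM + 1, which is a larger change of FPKM for low genes. All 10 intervals hold 0 and stay inside the dashed lines, and GABPA reaches furthest, to 0.47.

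TFAM (chr10:58385022-58399221, plus strand), which packages mitochondrial DNA and bends its promoters, read 12.4, 13.5 and 14.6 FPKM in control and 13.5, 14.0 and 16.0 FPKM in PRMT1 KD. The PRMT1 KD values ran a little higher, and the groups overlapped only through control 3, which lay above PRMT1 KD 1 and 2. Its log2 fold change was 0.09 (95% interval -0.10 to 0.29, adjusted p = 0.568), and 0.01 after the GC correction. POLRMT (chr19:617224-633604, minus strand), the single-subunit RNA polymerase of the mitochondrion, read 42.6, 43.2 and 39.3 FPKM in control and 43.6, 43.5 and 36.8 FPKM in PRMT1 KD. Its log2 fold change was the nearest to 0 of the 10 at -0.02 (95% interval -0.20 to 0.16, adjusted p = 0.938). The ratio of POLRMT to TFAM was 3.11 ± 0.373 in control and 2.88 ± 0.503 in PRMT1 KD (SD, n = 3).

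TFB2M (chr1:246540560-246566324, minus strand), which melts the promoter for POLRMT, read 5.46, 5.77 and 6.06 FPKM in control and 4.82, 5.68 and 5.08 FPKM in PRMT1 KD. PRMT1 KD 2 lay inside the control range and the other two lay below it. The log2 fold change was -0.13 (95% interval -0.30 to 0.05, adjusted p = 0.389), on 143 to 185 reads a library, the fewest of the 10. TFB1M (chr6:155257509-155314493, minus strand) read 4.55, 4.92 and 4.78 FPKM in control and 4.94, 4.27 and 5.57 FPKM in PRMT1 KD. Its PRMT1 KD libraries lay on both sides of the control range, with a log2 fold change of 0.04 (95% interval -0.18 to 0.25, adjusted p = 0.859). TIAM2 overlaps it on the opposite strand with 283 to 458 reads a library, more than the 168 to 232 of TFB1M.

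Most members varied with GC content in the replicate 3 libraries. GABPA, TFAM and PPARGC1A, at 36.5% to 43.7% GC, were highest in replicate 3 of both groups. NRF1, PPRC1, ESRRA and POLRMT, at 49.7% to 65.1% GC, were lowest in it in both groups. TFB2M (41.9% GC) was highest in control 3 but in the middle in PRMT1 KD 3, TFB1M (44.3%) in the middle in control 3 and highest in PRMT1 KD 3, and PPARGC1B (55.5%) lowest in control 3 and in the middle in PRMT1 KD 3. Over all genes tested, 20.3% were highest in replicate 3 of both groups, with a median GC content of 41.3%, and 22.6% were lowest in both, with a median of 57.3%. The part of GC content in the members' differences was not tested beyond the corrected values given here. With the correction, the log2 fold change was -0.19 for PPARGC1A (adjusted p = 0.0586) and -0.17 for TFB2M (adjusted p = 0.173), and no member passed the threshold.

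**Figure D3:**
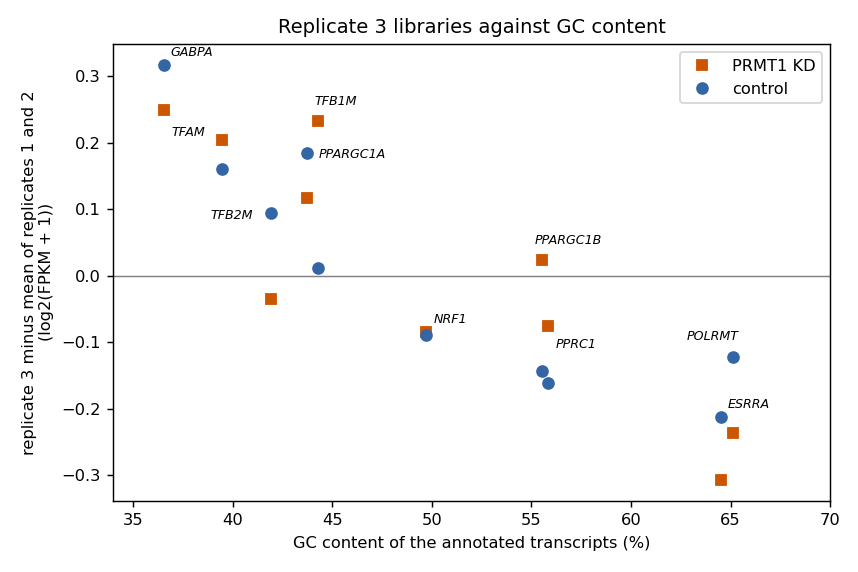
Level in replicate 3 minus the mean of replicates 1 and 2 (log2(FPKM + 1), y axis) against the GC content of the gene's annotated transcripts (percent, x axis), for each of the 10 genes in each group. Genes at low GC content lie mostly above 0, up to 0.32 for GABPA in control, and genes at high GC content mostly below it, down to -0.31 for ESRRA in PRMT1 KD.

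Genes that act beside the members were read from lists chosen by name, with earlier results of these data known. Over all genes tested, 2.05% were called by limma. Mitochondrial DNA maintenance (20 genes, all tested) held 1 gene called higher and none called lower, with a median log2 fold change of 0.04. The gene was LIG3, the DNA ligase of mitochondria that also serves nuclear single-strand break repair, at 10.9, 11.1 and 10.2 FPKM in control and 14.4, 14.6 and 14.6 FPKM in PRMT1 KD (log2 fold change 0.41, adjusted p = 0.0240). Every PRMT1 KD library was above every control library. DNA2, a nuclease and helicase of both compartments, came next with 8.46 and 10.6 FPKM (0.30, adjusted p = 0.0570). The largest falls in log2 fold change were those of TK2, a mitochondrial thymidine kinase (-0.18, adjusted p = 0.272), and MPV17 (-0.16, adjusted p = 0.282).

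Of 28 genes for elongation, termination, processing and decay of mitochondrial transcripts, 27 were tested and 0 were called by limma. In limma 3 had an unadjusted p under 0.05, against 19.5% of all genes. By voom 0 were called, against 6.82% of all genes, and the median log2 fold change of the list was -0.02. Named by the size of their log2 fold change were MRPL12, a ribosomal protein reported to bind POLRMT (-0.44, adjusted p = 0.238), HSD17B10 of the mitochondrial RNase P (-0.14, adjusted p = 0.310), GRSF1 of RNA granules (0.13, adjusted p = 0.203) and LRPPRC, which stabilises mitochondrial mRNAs (0.14, adjusted p = 0.355). MRPL12 overlapped between the groups, with its lowest value of 20.7 FPKM in PRMT1 KD 3.

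Of 40 partners and regulators of the PGC-1 coactivators, 31 were tested, 1 was called higher and none lower, and the median was 0.04. The gene called was MYC, a driver of myeloma growth that also acts on mitochondrial genes, at 223, 234 and 212 FPKM in control and 286, 284 and 267 FPKM in PRMT1 KD (log2 fold change 0.32, adjusted p = 0.0399), without overlap. TFEB, the lysosomal regulator that acts on PPARGC1A (-0.29, adjusted p = 0.153), FNIP2 (-0.20, adjusted p = 0.126) and the corepressor NRIP1 (0.25, adjusted p = 0.273) did not pass. PPARG, ESRRG, THRB, PRKAA2, TWIST1 and PRDM16 were among the 9 genes under 1 FPKM, and PRKAA2 and TWIST1 were listed at 0 in all 6 libraries.

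Downstream, 30 of 31 classic targets of NRF1 and GABP were tested. None was called higher and 2 were called lower, COX6A1 of cytochrome oxidase (81.4 and 62.9 FPKM, log2 fold change -0.37, adjusted p = 0.0425) and ATP5MC1 of ATP synthase (85.4 and 69.8 FPKM, -0.29, adjusted p = 0.0287). The log2 fold change was below 0 in 28 of the 30, with a median of -0.09, while 47.4% of all genes tested were below 0. The exceptions were the import receptors TOMM20 (0.05, adjusted p = 0.652) and TOMM70 (0.18, adjusted p = 0.171). COX8A had -0.35 (adjusted p = 0.166). In limma 12 of the 30 had an unadjusted p under 0.05, 11 lower and 1 higher, against 19.5% of all genes. By voom 4 were called, against 6.82% of all genes. Most of the list are subunits of the respiratory chain.

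Of 30 enzymes and other genes known as targets of oestrogen-related receptors, 25 were tested, 2 were called lower and none higher, with a median of -0.08. Both enzymes act in the citric acid cycle. OGDH, the first subunit of the 2-oxoglutarate dehydrogenase complex, was at 36.5, 37.7 and 33.8 FPKM in control and 27.1, 26.3 and 25.4 FPKM in PRMT1 KD (log2 fold change -0.44, adjusted p = 0.0240). IDH3B, a subunit of the NAD-dependent isocitrate dehydrogenase, was at 45.0, 48.4 and 45.1 FPKM in control and 38.7, 37.8 and 39.2 FPKM in PRMT1 KD (-0.25, adjusted p = 0.0487). Both were without overlap between the groups. In limma 7 of the 25 had an unadjusted p under 0.05, 6 lower and 1 higher, against 19.5% of all genes. By voom 3 were called, against 6.82% of all genes. FABP3 (-0.33, adjusted p = 0.298), CPT1A, the gate of fatty acid oxidation (0.14, adjusted p = 0.210), and CKMT2 (0.16, adjusted p = 0.458) did not pass, and PDK4, a frequent readout of PGC-1 alpha with ERR alpha, was listed at 0 in all 6 libraries.

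POLRMT, TFAM and TFB2M transcribe the mitochondrial genome. Its 13 protein-coding genes and 2 ribosomal RNAs were read here, without its transfer RNAs. All 15 were tested and 0 were called by limma. In limma 5 of the 15 had an unadjusted p under 0.05, against 19.5% of all genes. By voom 4 were called, against 6.82% of all genes. The median log2 fold change was -0.13, with 13 of 15 below 0. Under quantile normalization the median was 0. That method gives the same rank the same value in every library, so genes of unchanged rank show 0 there. It cannot decide whether the fall holds. MT-ND6, the only protein-coding gene read from the light strand, had the largest fall, from 1772, 1584 and 1488 FPKM in control to 1259, 1287 and 1212 FPKM in PRMT1 KD (log2 fold change -0.36, adjusted p = 0.0556), without overlap. The strand setting of the counting is not stated, so its reads cannot be told apart from those of the opposite strand. MT-CYB had the next largest fall, with 1096 and 942 FPKM (-0.22, adjusted p = 0.117). MT-ATP8 (0.00, adjusted p = 0.983) and the small ribosomal RNA MT-RNR1 (0.18, adjusted p = 0.648) stood at the other end. The 13 protein-coding genes summed to 49195 to 50512 FPKM in control and 43736 to 47838 FPKM in PRMT1 KD, with PRMT1 KD 1 the lowest. Without that library the median of the list was -0.07.

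With all 6 libraries, 0 genes of these lists were called by limma without the mean-variance trend, and 0 with no filter on low values. Some other alternatives called more, given here in the order of the lists above. A mean of at least 5 FPKM gave 2, 0, 1, 3, 3 and 1 genes, and voom on reads 2, 0, 2, 4, 3 and 4. The GC correction gave 1, 0, 4, 6, 6 and 3, and the replicate block with voom 5, 3, 10, 14, 9 and 11. Over all genes tested, these 4 settings called 473 of 7710, 927 of 13585, 1007 of 13574 and 2593 of 13585. The lists held 20, 27, 31, 30, 25 and 15 tested genes, or 18, 23, 26, 30, 22 and 15 at a mean of at least 5 FPKM. With control 1, control 2 or any one PRMT1 KD library left out, none of the 6 calls in these lists held, and without control 3 there were 1 in mitochondrial DNA maintenance, 1 among the NRF1 and GABP targets and 1 among the oestrogen-related receptor targets.

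**Figure D4:**
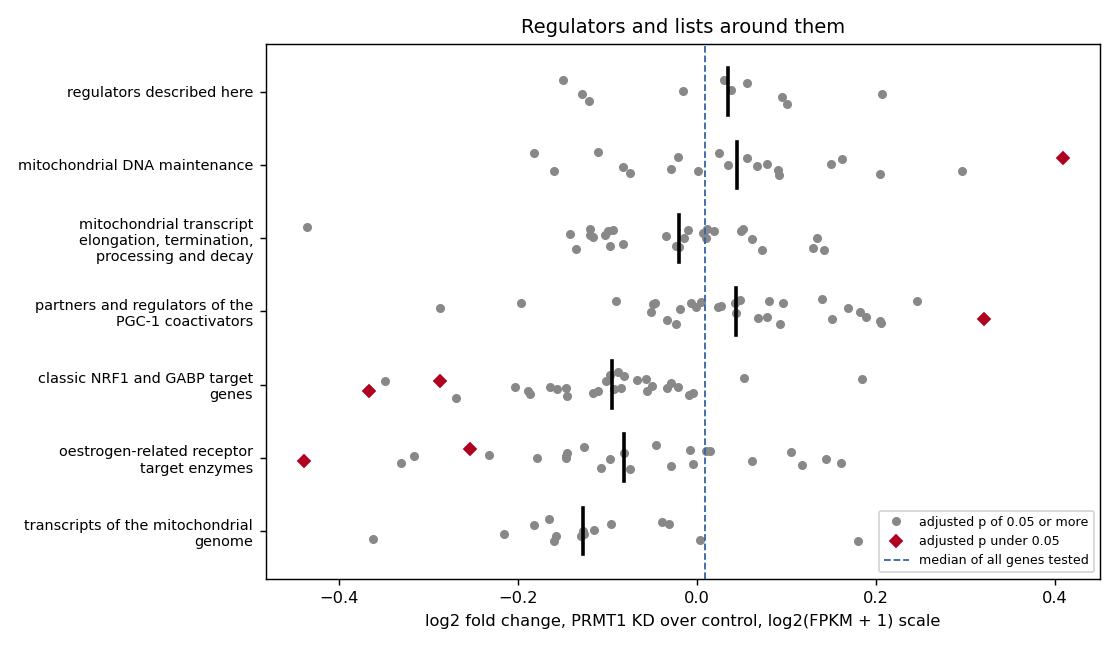
Log2 fold change (PRMT1 KD over control, log2(FPKM + 1) scale, x axis) of each gene tested in the regulators and in the 6 lists beside them; red diamonds have an adjusted p under 0.05, black bars are medians of a list and the dashed line is the median of all genes tested. The regulators hold no diamond and a median of 0.03, the NRF1 and GABP targets a median of -0.09 and the mitochondrial genome a median of -0.13.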

How the data were processed

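RNA of MM.1S cells was read in 6 libraries, grouped by the genotype in the labels. The authors deposited FPKM values per gene with its length and coordinates, counted with featureCounts 1.5.0-p3 on hg38 per the submitters' processing notes. The aligner, annotation release and strand setting are not given in the sources used here. All 58735 identifiers matched GENCODE 29 with the same coordinates. Deposited values were whole multiples of one read (100% within 0.1 read) and already scaled by median-of-ratios size factors. limma 3.58.1 in R 4.3.3 (mean-variance trend, two-sided, Benjamini-Hochberg) was run on log2(FPKM + 1), which understates changes of low genes, over genes with a mean of at least 1 FPKM. It was also run on simulated reads, with changes larger than those of any member and without a shift by GC content. That run does not show whether changes as small as the members' would be found. An adjusted p under 0.05 makes a call. Alternatives covered the pseudocount (0.1), the filter, scaling, moderation, voom on reads, a replicate block and each library left out. Chosen after seeing the data were a correction for the median deviation in 20 bins of GC content, alone and with the block, and the block with voom.

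The members and lists were chosen with earlier results of these data known. Named are all members, PRMT1, and in each list the genes called and the 2 largest falls and 2 largest rises, plus GABPB1 and GABPB2 as partners of GABPA and the genes listed at 0, chosen after their values were seen. With 11 genes lacking a GC value, 13574 were corrected. No sequence of proteins was used here.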

Additional observations from a re-analysis of the deposited data

How the results depend on the processing

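The number of members called was 0 under every alternative except the replicate block with voom on reads, chosen after seeing the data. That setting called 2, PPARGC1A (log2 fold change -0.16, adjusted p = 0.00715) and GABPA (0.23, adjusted p = 0.0115), and 2593 of the 13585 genes tested. The replicate block alone called 204 genes and 0 members, with adjusted p = 0.0926 for PPARGC1A and 0.0829 for GABPA and 3 members at an unadjusted p under 0.05 (25.7% of all genes), and IDH3B was not called (adjusted p = 0.0634). Same-numbered libraries deviated together by 0.02, 0.0631 and 0.101, and differently numbered ones by -0.0751 to 0.0186. Every library correlated best with its own number, but for number 1 only by 0.02 against 0.0186 and 0.0173. This is a hint from the data and not from the design, so the pairing was used only in the alternatives with a block. For the 279 genes called of 13585 tested, no filter gave 35 of 34078. A mean of at least 5 FPKM gave 473 of 7710 (PPARGC1B and TFB1M then untested). No trend gave 43, voom on reads 927, the GC correction 1007 of 13574 and unadjusted p 2655. Leaving out 1 library gave 13 to 94 genes (control 1 to 3: 13, 20 and 94; PRMT1 KD 1 to 3: 34, 16 and 26) and 0 members. TPM called 222 higher and 133 lower, against 145 and 134. POLRMT turned to 0.0036 with TPM and 0.032 with the GC correction, with or without the block, and ranged from -0.056 to 0.063 with 1 library left out. PPRC1 then ranged from -0.023 (without control 3) to 0.071, and TFB1M from -0.039 (without PRMT1 KD 3) to 0.12. The other members kept their direction with 1 library left out, at -0.19 to -0.088 for PPARGC1A, 0.052 to 0.14 for PPARGC1B, 0.026 to 0.11 for NRF1, 0.12 to 0.31 for GABPA, -0.19 to -0.018 for ESRRA, 0.026 to 0.15 for TFAM and -0.18 to -0.085 for TFB2M. For PPARGC1A, PPARGC1B, NRF1, GABPA and TFB2M the value nearest to 0 came without control 3, control 3, control 3, PRMT1 KD 3 and PRMT1 KD 1, and for ESRRA and TFAM without PRMT1 KD 3. The cause of these shifts was not tested. With 3 libraries a group and 143 to 5674 reads on a member, the lack of a call does not show that a member was unchanged.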
